A study of Rattus norvegicus with 6 samples.

Results

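The genes described here are 10 components of cellular oxygen sensing, chosen by name from the 29884 gene symbols of the count table. They are the transcription factor subunits Hif1a, Epas1, Hif3a and Arnt, the prolyl hydroxylases Egln1, Egln2 and Egln3, the ubiquitin ligase subunit Vhl, and the hypoxia-responsive genes Adm and Ankrd37. All 10 were found, and 9 passed the filter on low counts that left 16478 genes for testing. RNA-seq had been run on trigeminal ganglia, which hold the cell bodies of facial sensory neurons, from 6 samples of wild type rats. The 3 injury samples came from rats with chronic constriction of the infraorbital nerve (CCI-ION), used as a model of facial nerve pain. Rats of the 3 conduit samples were constricted likewise and then received the nerve conduit called SFM-Gel @NGC-Light, so the injury is shared by both groups. The sources used here give no strain, sex or age and do not say whether a sample is 1 animal, and uninjured ganglia are not analysed here.

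Cells sense oxygen mainly through the stability of the HIF alpha proteins. When oxygen is present, prolyl hydroxylases use it to mark the alpha subunit, VHL recognises the mark, and the protein is destroyed. When oxygen is scarce the alpha subunit persists, pairs with ARNT and activates genes of glucose use, vessel growth and oxygen supply, among them the genes of some prolyl hydroxylases, which closes a feedback loop. HIF2 alpha, the product of Epas1, is best known from endothelial cells, while HIF1 alpha is present in most cell types. RNA-seq counts transcripts and does not measure the stability of these proteins. The title of the study names photosynthetic oxygenation as part of the treatment, and the comparison asked whether transcripts of this system differed between treated and untreated constriction.

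HIF dimers bind a core written ACGTG or GCGTG, which is shown here where it lies near the starts of member genes because hypoxia-responsive genes are read out through this element. RefSeq windows from 250 bases before to 50 bases after the annotated start (build GRCr8, later than the mRatBN7.2 build of the counts) matched all 10 genes, in 11 windows because Hif3a has 2. ACGTG, on either strand, was in 3 of the 11 windows (27.3%), those of Hif1a, Egln1 and Ankrd37, against 19.3% of all 33469 windows. GCGTG, on either strand, was in 4 of the 11 (36.4%), those of Arnt, Egln1, Ankrd37 and Hif3a, against 29.7% of all windows. Either core was in 5 of 11 windows (45.5%), against 41.6% of all, so these shares lay near the background. The windows of Epas1, Egln2, Egln3, Vhl and Adm held neither set of letters. Ankrd37, an ankyrin repeat gene known as a HIF target, had the most matches, 5 in all, counting both strands of the palindrome CACGTG. The stretches below come from the 3 windows with ACGTG; further matches in Ankrd37, and those of Arnt and Hif3a, which held GCGTG alone, are not printed. They run 5′ to 3′ on the strand of the gene with the matched cores in capitals, and positions count from 1 at the first transcribed base, with -1 before it.
Ankrd37, positions -29 to 1, chr16:53001478-53001507, plus strand: gggctaCACGTGtcactgtttgggtACGTG
Egln1, positions -10 to 20, chr19:69804662-69804691, minus strand: gggccgtggtgtACGTGcagcgcgcgcgga
Egln1, positions -68 to -39, chr19:69804720-69804749, minus strand: gcccggcccgccGCGTGcgcgcggcccccg
Hif1a, positions -240 to -211, chr6:98359658-98359687, plus strand: acacagacgagCACGTGagctgggcagctc
Hif1a, positions -176 to -147, chr6:98359722-98359751, plus strand: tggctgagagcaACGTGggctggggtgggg
In Ankrd37 the palindrome and a further ACGTG lie within the 30 bases around the start. A match of letters does not show that a factor binds there.

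The libraries held 40.2 M to 41.9 M counts, and each expressed all 8 neuron markers checked, with sums between 10881 and 15521 CPM. Injury sample 1 and conduit sample 2 carried marker transcripts of other tissues, whose source was not tested. Skeletal muscle markers summed to 423 CPM in injury sample 1 and 7055 CPM in conduit sample 2, against 7.12 to 15.6 CPM elsewhere. Pituitary markers summed to 6057 CPM in injury sample 1, against 1.16 to 16.7 CPM elsewhere. Erythroid markers summed to 3742 to 4388 CPM in injury and 397 to 871 CPM in conduit, and neutrophil markers to 44.4 to 566 and 7.38 to 28.1 CPM. All 5 neutrophil markers were highest in injury sample 2. Proliferation markers summed to 78.0 and 49.7 CPM in injury samples 2 and 3. Their sum was 9.35 CPM in injury sample 1 and 9.72 to 14.6 CPM in conduit. The labels give days 14 to 16 after injury for the injury samples and days 17 to 19 for the conduit samples, rising by 1 with each sample, and whether ganglia were in fact taken on successive days is not known; if they were, day and treatment cannot be told apart. Batch 1 held injury samples 1 and 2, batch 3 held conduit samples 2 and 3, and batch 2 held injury sample 3 and conduit sample 1, the only pair that can be compared within a batch. A single gene of 16478 (0.00607%) differed between groups over all genes (edgeR quasi-likelihood test, adjusted p = 0.0357), RGD1563601, named here after its values were seen. That count ranged from 0 without conduit sample 3 to 38 without injury sample 1, and was 35 without injury sample 3 and 6 without conduit sample 1.

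The members spanned a wide range of levels per gene length, given here as the deposited FPKM, the count per kilobase of gene and scaled to the total counts of the library. Epas1 was the most abundant by its median, at 47.1 FPKM (45.4 to 55.9 over the 6 libraries), followed by Egln2, which encodes PHD1, at 38.2 FPKM (36.2 to 48.0). The ranges of these genes overlapped, and Egln2 exceeded Epas1 in injury sample 1 (46.3 against 45.8 FPKM) and in conduit sample 3 (48.02 against 47.4 FPKM). Hif1a at 19.7 FPKM (17.3 to 20.1), Vhl at 18.4 FPKM (17.9 to 19.9) and Egln1, which encodes PHD2, the main hydroxylase of HIF alpha in most cells, at 17.3 FPKM (12.9 to 19.4) formed a second step whose ranges overlapped. Arnt stood at 5.80 FPKM (4.09 to 7.18) and Egln3, which encodes PHD3, at 3.77 FPKM (3.23 to 7.56), again overlapping. Adm at 1.76 FPKM (1.16 to 2.38) and Ankrd37 at 1.36 FPKM (0.745 to 2.38) were low. Hif3a, whose products include inhibitors of the other alpha subunits, was last at 0.0275 FPKM (0.0179 to 0.101). No library of a lower step reached a library of the step above it. The alpha subunits together exceeded their shared partner Arnt, which reached 0.0632 to 0.110 of the summed FPKM of Hif1a and Epas1. Arnt2, a related partner known from neurons, was at 0.572 to 1.06 times the FPKM of Arnt.

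**Figure D1:**
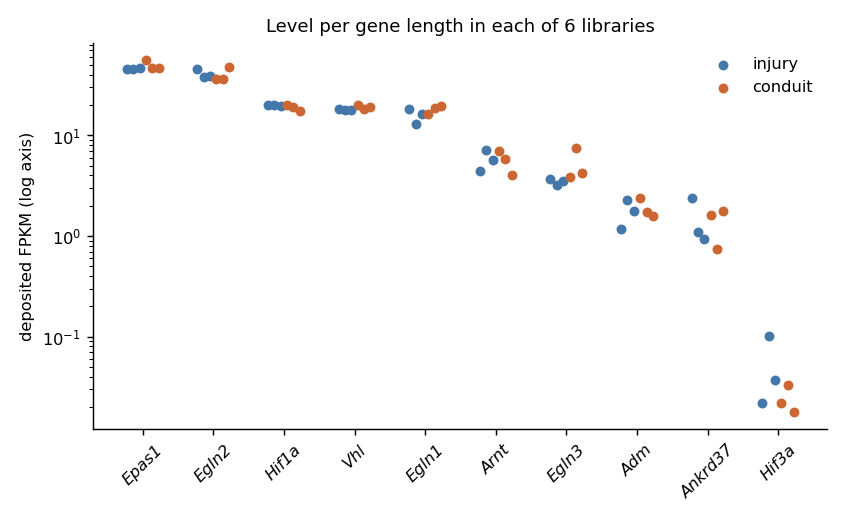
Deposited FPKM (log axis) of the 10 oxygen sensing genes, ordered by their median, with 1 point per library and 3 libraries per group. The genes fall in steps, from Epas1 and Egln2 at 36.2 to 55.9 FPKM down to Hif3a at 0.0179 to 0.101 FPKM.

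None of the 9 tested members differed between conduit and injury over all genes (edgeR, 0 called in either direction; DESeq2 and limma-voom also 0). At an unadjusted edgeR p under 0.05, 1 member was higher in conduit, Egln3, where 2.99% of all tested genes were higher at that level. In 3 members, Egln3, Epas1 and Vhl, every conduit library lay above every injury library, and in none did every conduit library lie below; 5.41% of all tested genes lay above in this way. The margins were small, as the values below show. Of the 9 estimates 7 were above 0, with a median log2 fold change of 0.13, beside 50.5% above 0 and a median of 0.0017 over all tested genes. For 7 members the 95% interval of the difference lay within a factor of 2 in either direction, the exceptions being Egln3 and Ankrd37. Because the labels do not say that samples are separate animals, p-values measure the spread between these samples. In bulk tissue, fewer cells of a type and less RNA per cell cannot be told apart.

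**Figure D2:**
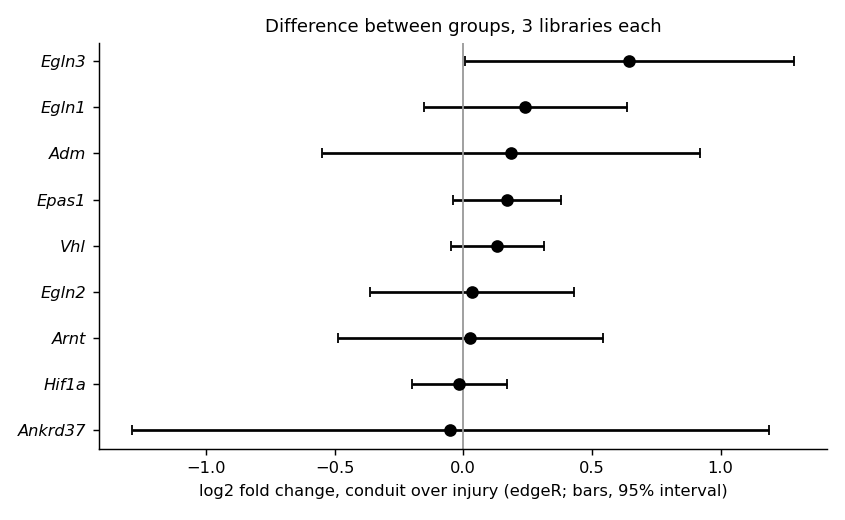
Log2 fold change, conduit over injury, of the 9 tested oxygen sensing genes from edgeR, with 95% intervals, 3 libraries per group. Hif1a lies at -0.016 with one of the narrowest intervals, Egln3 at 0.65, and Ankrd37 has the widest interval.

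Among the alpha subunits, Hif1a was level across the libraries. It stood at 83.9, 77.7 and 78.6 CPM in injury samples 1 to 3 and at 81.4, 81.2 and 75.1 CPM in conduit samples 1 to 3, with CPM here and below scaled by TMM. The groups overlapped throughout. The ratio of conduit to injury was 0.989 with a 95% interval from 0.871 to 1.12 (log2 fold change -0.016, SE 0.078; edgeR adjusted p = 0.99981). Epas1 stood at 249.2, 230.2 and 247 CPM in injury and at 295, 257 and 266 CPM in conduit. All 3 conduit libraries lay above the injury libraries, the closest pair being injury sample 1 and conduit sample 2. Its ratio was 1.13, with a 95% interval from 0.973 to 1.30 (log2 fold change 0.17, SE 0.089; edgeR adjusted p = 0.99981). Scaled by library totals alone, as in the deposited FPKM, the groups overlapped, at 45.8, 45.4 and 47.2 FPKM in injury and 55.9, 46.97 and 47.4 FPKM in conduit. Within batch 2 the ratio was 1.19.

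The ratio of Epas1 to Hif1a does not depend on scaling between libraries. By FPKM it was 2.29, 2.28 and 2.42 in injury and 2.79, 2.44 and 2.73 in conduit. The groups did not overlap, by the small margin between injury sample 3 and conduit sample 2. The means were 2.33 ± 0.0774 (SD, n = 3) and 2.65 ± 0.189 (SD, n = 3), with p = 0.1 by a two-sided exact permutation test, the smallest p that 3 libraries against 3 allow, and 0.467 after Benjamini-Hochberg adjustment over the 7 ratios and sums computed. Endothelial markers, from the cell type in which Epas1 is best known, summed to 238, 264 and 273 CPM in injury and to 320.0, 308 and 240.2 CPM in conduit, with 7 of 9 markers above 0 in log2 fold change and none free of overlap. In conduit sample 3 Epas1 was above every injury library while the endothelial sum was at the level of injury sample 1. Schwann cell markers summed to 28748 to 35170 CPM in injury and to 42019 to 48232 CPM in conduit, with 5 of 6 markers above 0 and 4 free of overlap; the part of either cell type in the Epas1 level was not tested.

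Hif3a could not be tested by edgeR because of its low counts. It had 6, 27 and 10 counts in the injury libraries and 6, 9 and 5 in the conduit libraries, all above the floor of 3 counts used here. Injury sample 2 held the highest count and the groups overlapped. DESeq2, which kept the gene, gave a log2 fold change of -1.05 (adjusted p = 0.999897). Arnt, a partner with which the alpha subunits bind DNA, stood at 20.01, 30.1 and 24.7 CPM in injury and at 30.8, 26.5 and 19.0 CPM in conduit. Its lowest levels fell in injury sample 1 and conduit sample 3, and the groups overlapped almost entirely (log2 fold change 0.028, SE 0.22; edgeR adjusted p = 0.99981).

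**Figure D3:**
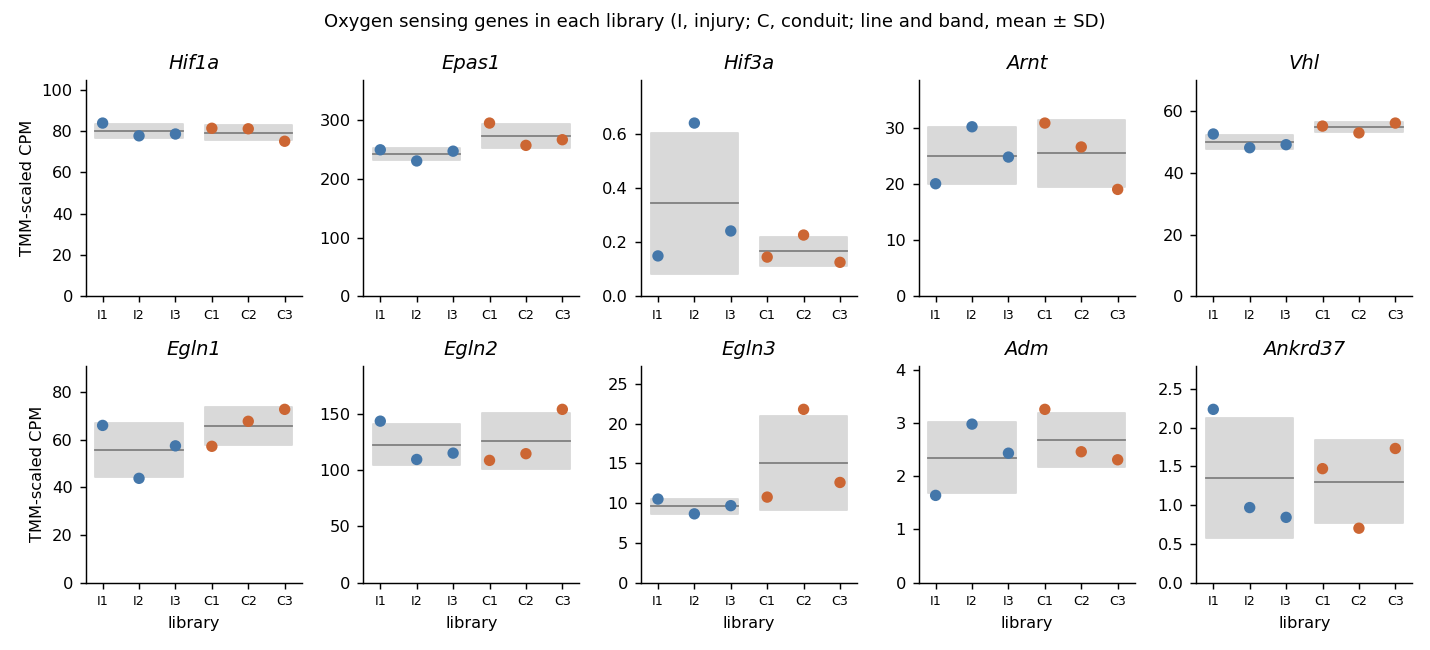
TMM-scaled CPM of the 10 oxygen sensing genes in each library, with the mean as a line and the SD as a band (I, injury; C, conduit; n = 3 per group; each vertical axis starts at 0). Hif1a stays between 75.1 and 83.9 CPM, Egln3 is highest in conduit sample 2 at 21.8 CPM, and Arnt is lowest in injury sample 1 and conduit sample 3.

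The prolyl hydroxylases differed more between libraries than Hif1a did. Egln3, whose transcript is induced by HIF in many cell types, stood at 10.5, 8.66 and 9.69 CPM in injury and at 10.8, 21.8 and 12.6 CPM in conduit. The groups did not overlap, but conduit sample 2 stood well above the rest and conduit sample 1 barely exceeded injury sample 1. The log2 fold change was 0.65 (SE 0.27, 95% interval 0.0051 to 1.29; unadjusted p = 0.0486 and adjusted p = 0.931, edgeR). It was 0.29 without conduit sample 2 and 0.84 without conduit sample 1, and within batch 2 it was 0.15. The unadjusted p for Egln3 depended on the setting. It was 0.026 with DESeq2, but 0.079 with limma-voom and 0.063 by edgeR with library totals. Skeletal muscle markers summed to 423, 7.28 and 7.45 CPM in injury and to 7.12, 7055 and 15.6 CPM in conduit, and all 5 markers were highest in conduit sample 2. Injury sample 1, with the next highest muscle sum, held the highest Egln3 level of its group, at 10.5 CPM. Conduit samples 1 and 3 exceeded it, at 10.8 and 12.6 CPM, with muscle sums of 7.12 and 15.6 CPM. The part of muscle transcripts in the Egln3 level was not tested.

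Egln1 stood at 66.0, 43.8 and 57.4 CPM in injury and at 57.2, 67.7 and 72.7 CPM in conduit. Injury sample 2 was lowest and the groups overlapped (log2 fold change 0.24, SE 0.17; edgeR adjusted p = 0.99981). The estimate was 0.094 without injury sample 2 and 0.39 without injury sample 1, and within batch 2 the ratio was 0.997. Egln2 stood at 143, 109 and 115 CPM in injury and at 108, 114 and 154 CPM in conduit. Its high libraries were injury sample 1 and conduit sample 3, 1 of each group (log2 fold change 0.036, SE 0.17; edgeR adjusted p = 0.99981). Of the summed FPKM of the 3 hydroxylases, Egln2 made up 67.9, 70.03 and 65.9% in injury and 64.2, 58.4 and 67.0% in conduit. Egln3 made up 5.38, 5.99 and 5.999% in injury and 6.88, 12.0 and 5.93% in conduit, so that only conduit sample 2 stood clearly apart.

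Vhl, the subunit that recognises hydroxylated HIF alpha, stood at 52.6, 48.1 and 49.1 CPM in injury and at 55.1, 52.9 and 56.1 CPM in conduit. All 3 conduit libraries lay above the injury libraries, though injury sample 1 and conduit sample 2 differed by less than either group's SD (2.34 and 1.63 CPM). The ratio was 1.10 with a 95% interval from 0.966 to 1.24 (log2 fold change 0.13, SE 0.076; edgeR adjusted p = 0.99981). Within batch 2 it was 1.12. The groups also did not overlap when scaled by library totals, where 3.33% of tested genes lay above in conduit. The closest pair there was nearly level, at 18.40 FPKM in injury sample 1 and 18.43 FPKM in conduit sample 2.

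The hypoxia-responsive members were low and uneven. Adm, which encodes the vasodilator peptide adrenomedullin, had 66, 126 and 101 counts in injury and 135, 98 and 92 in conduit, or 1.64, 2.98 and 2.43 CPM and 3.26, 2.46 and 2.31 CPM. Injury sample 1 was lowest and the groups overlapped (log2 fold change 0.19, SE 0.31; edgeR adjusted p = 0.99981). The estimate was -0.0069 without injury sample 1 and 0.39 without injury sample 2. Ankrd37 had 90, 41 and 35 counts in injury and 61, 28 and 69 in conduit, or 2.24, 0.970 and 0.843 CPM and 1.47, 0.703 and 1.73 CPM. The highest libraries were injury sample 1 and conduit sample 3, and the estimate changed sign with the libraries used: -0.051 (SE 0.52; edgeR adjusted p = 0.99981) with all, 0.53 without injury sample 1 and -0.31 without conduit sample 3. Within batch 2 the conduit library held 1.75 times the level of the injury library, from 61 and 35 counts.

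Several members divided the libraries in the same way, across the groups. Injury sample 1 and conduit sample 3 held the highest levels of Egln2 and Ankrd37 and the lowest of Arnt. Over the 6 libraries Egln2 and Arnt ran opposite, with Pearson r = -0.96 in log2 CPM, the lowest of the 36 pairs of tested members, and the highest was 0.83 for Arnt with Adm. These values describe 6 libraries that share their scaling and tissue makeup, and carry no test. Neuron markers summed to 13124, 12274 and 12089 CPM in injury and to 10881, 11958 and 15521 CPM in conduit. These sums were highest in the same libraries as Egln2, and 5 of 8 markers were above 0 between groups. Nefl, the most abundant of these markers, was instead lowest in injury sample 1 (4984 CPM, against 5022 to 6412 CPM elsewhere). Fibroblast markers summed to 1413, 2390.1 and 2058 CPM in injury and to 2612, 2166 and 1604 CPM in conduit, lowest in the same libraries as Arnt, with 3 of 4 markers above 0. Of these markers, Dcn and Lum were lower in injury sample 3 (470 and 140 CPM) than in injury sample 1 (542 and 148 CPM). Sums of pericyte and smooth muscle, endothelial and macrophage markers were likewise lowest in injury sample 1 and conduit sample 3. They stood at 150, 238 and 52.7 CPM in injury sample 1 and at 160, 240 and 46.2 CPM in conduit sample 3. The macrophage sum of conduit sample 2 was close, at 55.2 CPM. Not every marker followed its sum. In conduit sample 3 the macrophage marker Aif1 (11.4 CPM) and the endothelial marker Cldn5 (64.4 CPM) exceeded every injury library. The part of cell makeup in Egln2 or Arnt was not tested. Vegfa, a HIF target of vessel growth, was picked here after its values were seen. It was also low in injury sample 1 and conduit sample 3. Its levels were 31.6, 64.4 and 65.5 CPM in injury and 55.0, 85.5 and 30.4 CPM in conduit.

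**Figure D4:**
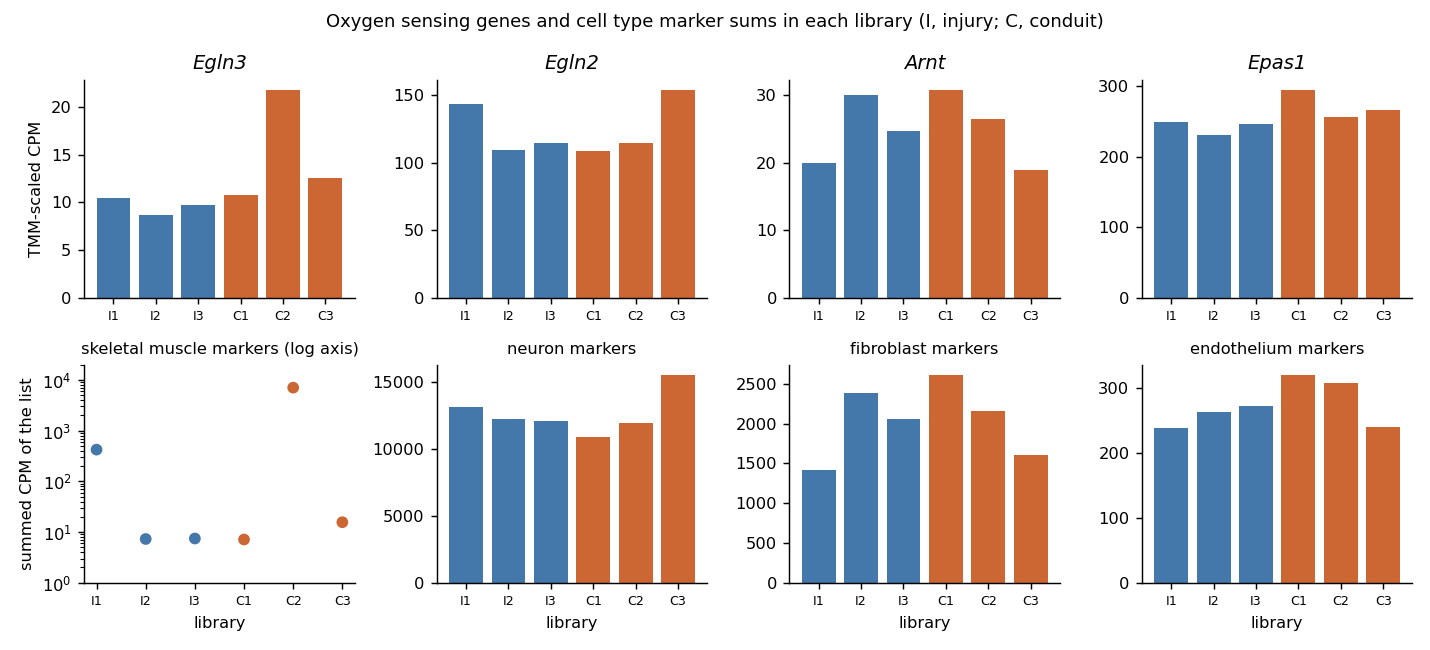
Upper row, TMM-scaled CPM of Egln3, Egln2, Arnt and Epas1 in each library; lower row, summed CPM of skeletal muscle (log axis), neuron, fibroblast and endothelial markers in the same libraries (I, injury; C, conduit). Egln3 and the muscle sum are both highest in conduit sample 2, and Egln2 and the neuron sum are both highest in conduit sample 3.

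Genes with the most similar pattern were sought for Hif1a, Epas1 and Egln3, the member with the smallest p, among 10562 other genes whose mean log2 CPM reached 3. The measure was Pearson r of log2 CPM over the 6 libraries, which share scaling and makeup, so it is a description only. Among the nearest to Hif1a were Rap1b (r = 0.96) and Aco1 (0.95), of 14 genes above 0.9. Nearest to Epas1 were Mvb12b (0.99), Rell1 (0.99) and the endoplasmic reticulum chaperone gene Hsp90b1 (0.98), among 95 genes above 0.9. Hsp90b1 stood at 329, 291 and 315 CPM in injury and at 417, 356 and 369 CPM in conduit, highest in conduit sample 1 as was Epas1. Nearest to Egln3 were Pstpip2 (0.99), Pvalb (0.99) and Kxd1 (0.98), among 70 genes above 0.9. Pvalb, a calcium buffer of fast muscle fibres and of some neurons, stood at 100.2, 68.4 and 74.1 CPM in injury and at 80.7, 409.7 and 118 CPM in conduit.

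Other regulators of HIF also showed no called difference. Of 19 listed regulators, all tested, 7 were above and 12 below 0 in log2 fold change, with a median of -0.028. None was called by edgeR, DESeq2 or limma-voom, and none had an unadjusted edgeR p under 0.05, where 5.35% of all tested genes did. With TMM scaling none had groups free of overlap, where 9.63% did. With library totals every conduit library of Cul2 lay below every injury library. The smallest p belonged to Ado, a thiol dioxygenase that senses oxygen apart from HIF, so the list is not of HIF regulators alone. Ado stood at 10.8, 11.1 and 9.76 CPM in injury and 12.8, 13.4 and 10.7 CPM in conduit (edgeR adjusted p = 0.99981). Crebbp, a coactivator that binds HIF alpha, averaged 22.5 ± 1.76 CPM over the injury libraries and 24.6 ± 0.793 CPM over the conduit libraries (SD, n = 3 each). Arnt2 was 33.96 ± 1.91 and 29.6 ± 6.37 CPM, lowest in conduit sample 2, and Siah1, a ubiquitin ligase that targets prolyl hydroxylases, was 26.2 ± 1.94 and 28.5 ± 1.51 CPM. Hif1an, the asparagine hydroxylase that blocks the activity of HIF alpha, had a log2 fold change of -0.0076 (SE 0.096; edgeR adjusted p = 0.99981) and was picked for its role, outside the naming rule.

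Transcripts that HIF is known to activate showed no called difference by edgeR or limma-voom. Of 47 listed targets 46 were tested; Epo, the erythropoietin gene, had 0 counts in all libraries. The median log2 fold change was 0.042, with 26 above 0 and 20 below. EdgeR called 0 in either direction. At an unadjusted p under 0.05, 2 of the 46 were higher and none lower, where 2.99% of all tested genes were higher. In 3 of the 46 every conduit library lay above, where 5.41% of all tested genes did, and both counts are near those shares. With TMM scaling none lay below in this way, but with library totals Eno1 and Bnip3l did. DESeq2 called 1, P4ha1, where it called 1.23% of all the genes it tested, and limma-voom called 0. P4ha1, a collagen prolyl hydroxylase that also requires oxygen, stood at 57.0, 58.8 and 59.9 CPM in injury and at 83.1, 76.5 and 79.7 CPM in conduit. Its groups stood apart by more than the spread within either (log2 fold change 0.45, SE 0.073; unadjusted p = 0.00054 and adjusted p = 0.309, edgeR). Its adjusted p was 6.6e-05 with DESeq2 and ranged up to 0.999934 over the other alternatives, while the estimate stayed between 0.38 and 0.48. Ndrg1, a hypoxia-induced gene that Schwann cells express strongly, stood at 912, 869.5 and 921 CPM in injury and at 1069, 969.9 and 1085 CPM in conduit, with no overlap (log2 fold change 0.21, SE 0.085; edgeR adjusted p = 0.915). The Schwann cell marker sums given above also did not overlap, and their part in Ndrg1 was not tested. Rora, a nuclear receptor gene, averaged 9.08 ± 0.638 CPM over the injury libraries and 10.9 ± 0.782 CPM over the conduit libraries (SD, n = 3 each), with no overlap at this scaling and an overlap with library totals. Slc16a3, a lactate exporter of fast muscle, stood at 1.49, 2.60 and 1.01 CPM in injury and at 1.52, 20.2 and 0.929 CPM in conduit. Its log2 fold change of 2.14 (edgeR adjusted p = 0.99981) became -0.47 without conduit sample 2, the library with the highest muscle marker sum. In injury sample 1, with the next highest muscle sum, Slc16a3 was below its level in injury sample 2. The part of muscle transcripts in the Slc16a3 level was not tested. In the RefSeq windows, 37 of the 47 targets had an entry, and 31 of their 43 windows (72.1%) held ACGTG or GCGTG on either strand, against 41.6% of all windows; the windows were not matched for base composition.

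**Figure D5:**
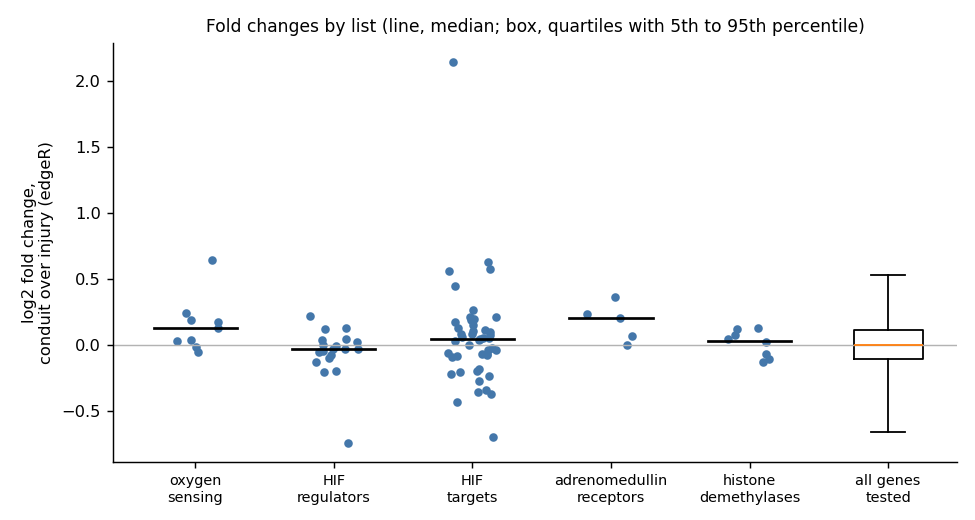
Log2 fold change, conduit over injury (edgeR), of the tested oxygen sensing genes, HIF regulators, HIF targets, adrenomedullin receptor genes and oxygen-dependent histone demethylases, with 1 point per gene, beside the quartiles and the 5th to 95th percentile of all 16478 tested genes. List medians lie between -0.028 and 0.20, and the highest point among the targets is Slc16a3 at 2.14.

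The receptor genes for adrenomedullin, shared in part with the CGRP receptor, had a median log2 fold change of 0.20 over 5 genes, with 4 above 0. None was called (edgeR, DESeq2 and limma-voom), had an unadjusted edgeR p under 0.05 or was free of overlap. Over all tested genes 50.5% were above 0 and edgeR called 0.00607%. Such an unadjusted p was found for 5.35% and groups free of overlap for 9.63%, so none among 5 genes is near those shares. Calcrl, the receptor itself, was 19.7 ± 1.81 CPM in injury and 19.7 ± 5.50 in conduit (SD, n = 3 libraries each). Its accessory proteins Ramp1 and Ramp3 were 8.11 ± 0.0786 and 23.3 ± 1.54 CPM in injury and 10.4 ± 2.72 and 27.4 ± 5.59 CPM in conduit. Ramp2 was 29.9 ± 3.99 and 31.4 ± 2.57 CPM, and the decoy receptor Ackr3 was 9.84 ± 0.853 and 11.3 ± 2.45 CPM. The conduit SD of Calcrl, Ramp1, Ramp3 and Ackr3 exceeded the injury SD. Of 8 histone demethylases that use oxygen, 5 were above 0, with a median of 0.033. None of these was called (edgeR, DESeq2 and limma-voom), had an unadjusted edgeR p under 0.05 or was free of overlap, again near the shares over all tested genes. Kdm5b averaged 39.9 ± 2.80 CPM in injury and 37.2 ± 0.969 CPM in conduit, and Kdm5a 39.1 ± 5.02 and 42.7 ± 4.83 CPM (SD, n = 3 libraries each).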

How the data were processed

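Libraries were made from purified mRNA of TRIzol extracts, per the labels' protocols. Tools named in the submitters' processing notes are HISAT2, HTSeq, fastp, DESeq2 and SAMtools, with the build mRatBN7.2. Not given in the sources used here are tool versions, gene annotation and strandedness. Values in the deposited count table are whole reads per gene symbol. The deposited FPKM are the same counts divided by gene length and library total: over 15192 genes with at least 10 counts in every library, both gave 1 length to within 0.1%, so they are no second measurement.

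Genes were kept by filterByExpr (minimum count 10), scaled by TMM and tested with edgeR 4.0.16 (robust quasi-likelihood F test, no covariate, R 4.3.3) over all 16478 genes, at a Benjamini-Hochberg adjusted p under 0.05. Groups came from the titles. Intervals are 95% from the quasi-likelihood SE. DESeq2 1.42.0, limma 3.58.1 (voom, and log2 FPKM with a pseudocount), other scalings and filters, the replicate number, the batch and each library left out were alternatives. Tests were checked on simulated data. Pearson r used log2 CPM with a prior count of 2.

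The rule named all 10 members, 4 genes with the smallest p per regulator and target list, all adrenomedullin receptor genes, 2 demethylases, and the 3 genes most like Hif1a, Epas1 and Egln3, of which 1 is not reported here. Members and lists were chosen with earlier results of these data known. Car9 and Car12 were matched to listed targets, and Myl11 to a muscle marker, by RefSeq synonyms. In GRCr8, Hif1a, Egln2 and Ankrd37 overlap LOC120103553 (0 to 1 counts), Cyp2t1 (215 to 294) and Lrp2bp (0 to 7), and without a known strand setting reads of overlapping genes cannot be told apart.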

Additional observations from a re-analysis of the deposited data

How the results depend on the processing

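The number of members called was 0 under every alternative that gave a test, and so was the number of regulators; for targets it was 1 with DESeq2 and 0 elsewhere. Over all genes 1 gene was called, and 6 with no filter on low counts, 210 with DESeq2 (112 higher), 9 and 5 with limma on log2 FPKM (pseudocounts 1 and 0.1), 0 with batch as a term, and 13 without injury sample 1 and conduit sample 2 together, an alternative chosen after seeing the data, as was scaling by library totals. With 1 library left out it ranged from 0 to 38. With batch as a term the comparison rests on the pair of libraries in batch 2, because the other batches each held a single group. The replicate block gave 0 calls. Deviations of same-numbered libraries correlated at -0.42, 0.057 and -0.071, and no library correlated best with its own number. With 3 libraries per group these correlations cannot settle whether the numbers pair the samples. No member's call changed with the block.

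Of 162 member values under other settings 28 had the other sign, 4 of them within batch 2 alone (0.050 for Hif1a, -0.0048 for Egln1, -0.083 for Egln2 and 0.77 for Ankrd37), and 3 within batch 2 moved by more than the SD. With 1 library left out, log2 fold changes ranged from -0.038 to 0.029 for Hif1a, -0.13 to 0.20 for Arnt, -0.14 to 0.17 for Egln2, -0.0069 to 0.39 for Adm, -0.31 to 0.53 for Ankrd37, -0.47 to 2.67 for Slc16a3, -0.21 to 0.20 for Calcrl and -0.016 to 0.19 for Ramp2. With batch as a term, the estimates rest on the same pair of libraries as batch 2 alone and nearly repeat its values. Values of the other sign were 0.050 for Hif1a, -0.0048 for Egln1, -0.083 for Egln2, 0.80 for Ankrd37, 0.0048 for Arnt2, -0.063 for Siah1 and 0.44 for Calcrl. Without injury sample 1 and conduit sample 2 they were 0.013 for Hif1a, -0.13 for Arnt, 0.83 for Ankrd37 and -0.55 for Slc16a3. With limma on log2 FPKM (pseudocount 1, then 0.1) they were -0.029 and -0.035 for Arnt and -0.026 and -0.027 for Egln2, and with library totals -0.027 and -0.021. Limma-voom gave 0.0011 for Ankrd37, and Calcrl was 0.0026 with no filter and 0.00015 with the stricter filter. The causes were not tested. Library totals moved the median log2 fold change of all genes by -0.056.

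Adm, Ankrd37 and Hif3a rest on 5 to 135 counts per library, which limits the precision of their values.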
